A study of Mus musculus with 6 samples.

Results

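Axon guidance ligands and receptors are the secreted and membrane proteins that steer growing axons, and they were taken by symbol from the 17092 genes of the table, which gave 70 genes: 20 semaphorins, 11 plexins and neuropilins, 14 Eph receptors, 8 ephrins, 7 Slits and Robos, and 10 netrins and netrin receptors. Their mRNA was measured by RNA-seq of mouse embryonic fibroblasts (MEFs), primary cells grown out of mouse embryos, with 3 libraries from wild-type (WT) MEFs and 3 from *Aff3ir-ORF2-/-* MEFs (KO in the figures), and the comparison asks what differs when *Aff3ir-ORF2* is lost. The *Aff3ir-ORF2-/-* mice carry a germline deletion of *Aff3ir-ORF2*, a reading frame of a gene nested within *Aff3*, made by injecting Cas9 mRNA and guide RNAs into fertilised eggs, so the deletion is present in every cell from the start of development. The labels name no treatment, sex or embryo for any of the 6 cultures and do not say whether the libraries of a genotype came from separate embryos, so the p-values measure the spread between these libraries, which may be technical. *Aff3ir* was not analysed here, so each genotype is the one on the label.

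The 4 ligand and receptor systems share a plan, a ligand on or from one cell and a receptor on another, and the receptors act on the cytoskeleton through small GTPases and tyrosine kinases. Semaphorins bind plexins, and the secreted class 3 semaphorins mostly need a neuropilin as co-receptor. Ephrins are held on the cell surface and bind Eph receptor tyrosine kinases on the neighbouring cell, Slits bind Robo receptors, and netrins bind Dcc, neogenin and the Unc5 receptors. Outside the nervous system the same proteins guide vessels and set the borders, spreading and contractility of mesenchymal cells such as fibroblasts.

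Library totals were 17435133 to 17726034 counts in WT and 18209421 to 18252330 in *Aff3ir-ORF2-/-* MEFs. Levels are given as CPM, the counts of a gene relative to the TMM-scaled total of its library, and the floor used here, 3 counts in a library, is 0.174 CPM in WT replicate 1. The *Aff3ir-ORF2-/-* libraries differed from each other more than the WT libraries did, with chi-square statistics per degree of freedom of 5.56 to 18.9 against 1.38 to 1.71. Fibroblast markers had the highest sum of 8 cell type lists in all 6 libraries. The sum of the 10 listed was 19198 to 19235 CPM in WT and 13797, 17565 and 13180 CPM in *Aff3ir-ORF2-/-* replicates 1, 2 and 3. By the rule for a call given below, 3 of the 10 rose (*Dcn*, *Lum* and *Pdgfrb*) and 1 fell (*Fbln1*). *Col1a1*, the largest part of the sum, fell by less than 1.5-fold. Of 17 macrophage markers 16 were tested and all 16 rose. Their sum was 20.4 to 24.3 CPM in WT and 1360, 1880 and 2320 CPM in *Aff3ir-ORF2-/-* libraries, and 5 of the 17 were at or under 3 counts in every WT library, with *C1qa*, *C1qb* and *Aif1* at 0. The 5 smooth muscle markers all rose as well (sums 4166 to 4267 and 7084 to 7755 CPM), 5 of 6 tested neuronal markers fell (71.7 to 78.1 and 33.4 to 42.1 CPM) and 4 of 6 neural crest and glial markers rose (9.80 to 10.4 and 12.7 to 24.8 CPM). Among 5 tested endothelial markers 2 rose (*Kdr* and *Erg*) and 1 fell (*Cdh5*), and their median log2 fold change over WT was -0.39. The endothelial sum was 10.8 to 10.9 CPM in WT and 12.8 to 18.1 CPM in *Aff3ir-ORF2-/-* MEFs. Epithelial and skeletal muscle markers stayed under 6 CPM in every library. The part that these other cell types had in the values below was not tested, and in bulk RNA fewer cells of a type and less RNA per cell cannot be told apart.

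Guidance genes changed in both directions in *Aff3ir-ORF2-/-* MEFs, and more of them rose than fell. Of the 58 members with enough counts to test, 20 rose and 7 fell by at least 1.5-fold with a Benjamini-Hochberg adjusted p under 0.05 in edgeR's quasi-likelihood test, which is the rule for a call throughout. That is 34.5% and 12.1% of the tested members, against 14.3% of all 13075 tested genes called higher and 7.32% called lower, and 46.6% against 21.6% for calls in either direction. Rises were 74.1% of the calls among members and 66.1% of the calls among all tested genes. Without *Aff3ir-ORF2-/-* replicate 2 these shares were 65.6% and 64.5%. At an adjusted p under 0.05 alone 43 of the 58 passed, against 56.9% of all tested genes, so that 16 members changed by less than 1.5-fold and 15 did not pass. The 3 libraries of each genotype did not overlap for 46 members (79.3%), against 66% of all tested genes. The median log2 fold change was 0.29 over the members and 0.0056 over all tested genes, with 36 members above 0 and 22 below. In the values that follow, log2FC is the log2 fold change of *Aff3ir-ORF2-/-* over WT, and its standard error comes after the ± sign. The greatest rises were in *Sema4d*, *Sema6b*, *Sema3b* and *Robo2*, and the greatest falls were in *Sema3e*, *Unc5a* and *Sema5a*.

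**Figure D1:**
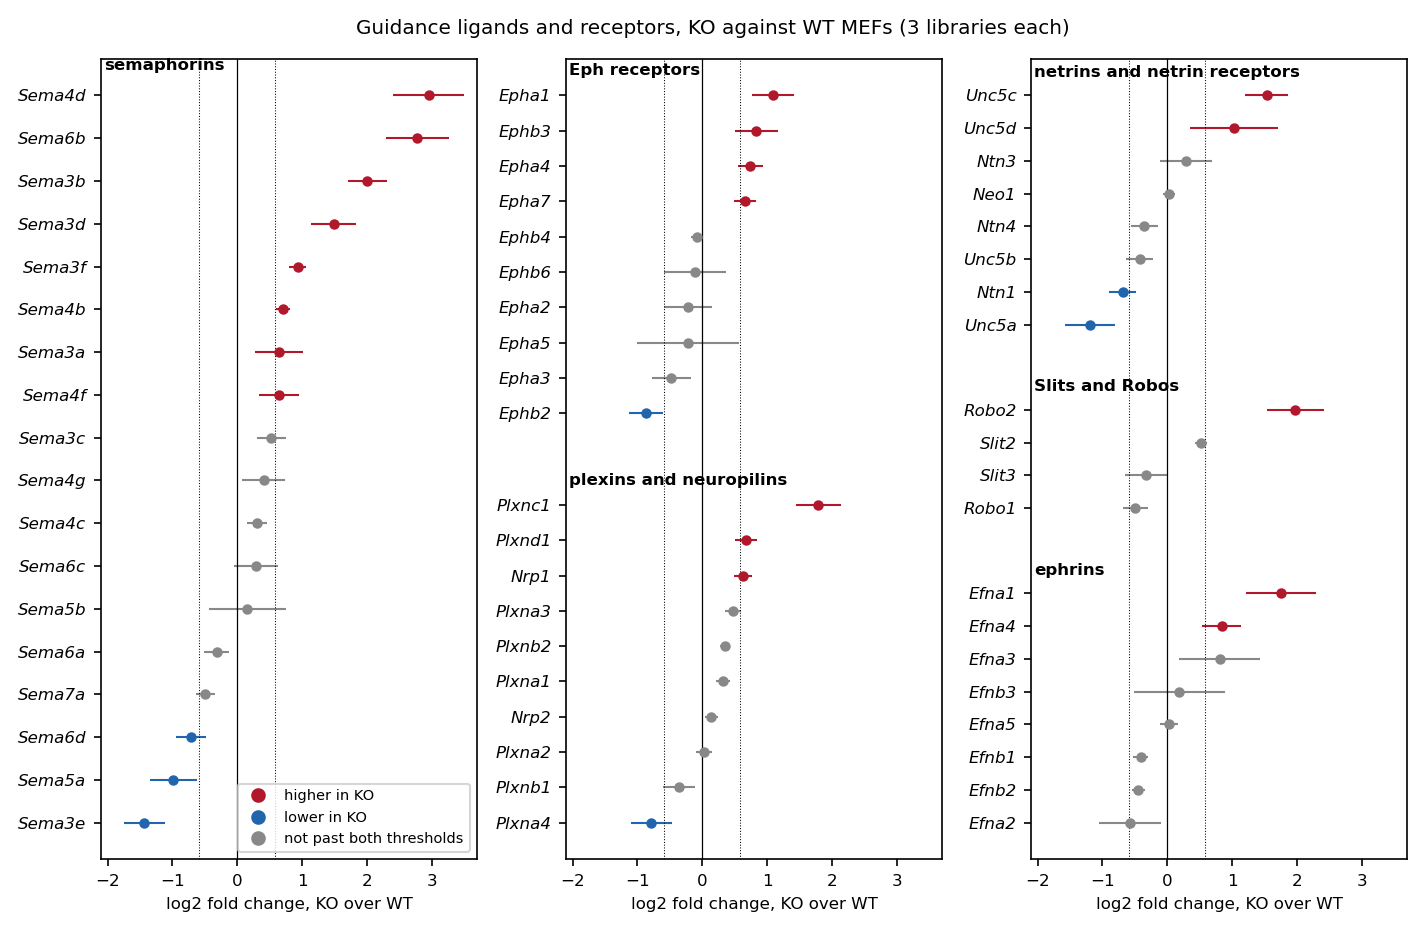
Log2 fold change (*Aff3ir-ORF2-/-* over WT, x axis) of each of the 58 tested members, by family on the y axis, with bars for the 95% interval; red marks members called higher, blue members called lower and grey the rest. Called members reach from -1.43 (*Sema3e*) to 2.95 (*Sema4d*), and every family holds at least 1 member called higher.

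**Figure D2:**
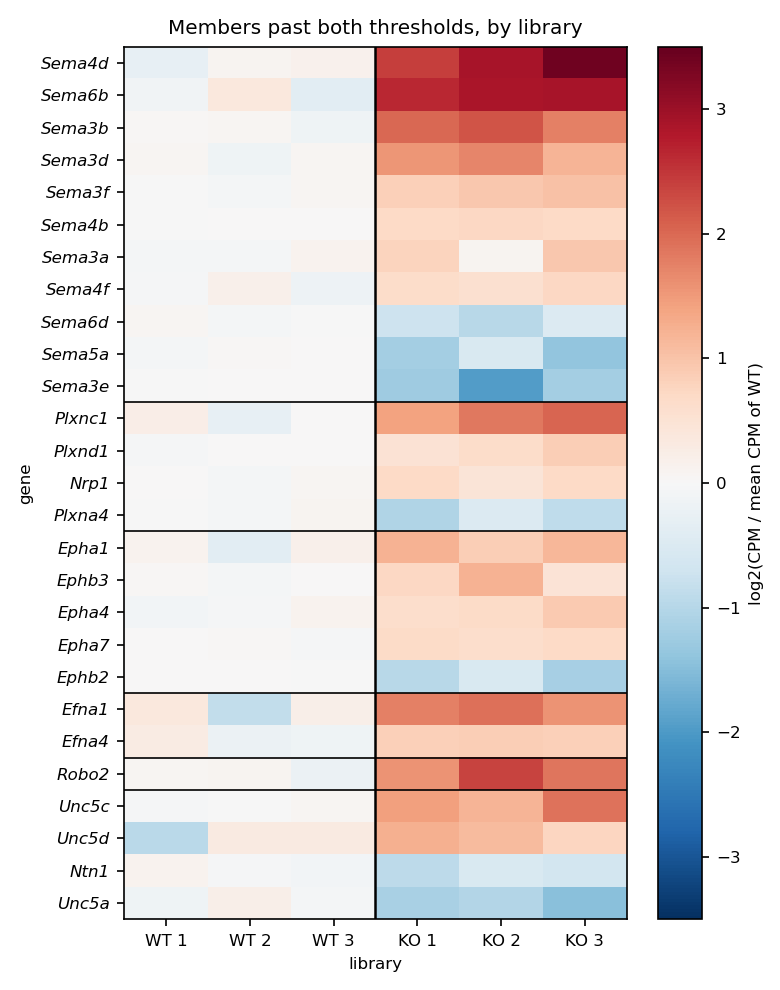
Log2 ratio of the CPM in each library to the WT mean for the 27 called members, as a colour from blue (below) to red (above), with members in rows and the 6 libraries in columns. The WT columns are pale except for *Efna1* in WT replicate 2 and *Unc5d* in WT replicate 1, which had 10 and 5 counts, while in *Aff3ir-ORF2-/-* replicate 2 the colour of *Sema3a* is weaker and that of *Sema3e* stronger than in *Aff3ir-ORF2-/-* replicates 1 and 3.

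Promoter sequence was at hand for 60 members in RefSeq (build GRCm38.p6), as 76 windows from 250 bases before to 50 bases after a transcript start. The windows of the most changed called members with 1 listed start, 2 per direction, are printed to show the sequence at the starts of genes that rose and of genes that fell, and capitals mark the GC box, GGGCGG on either strand. *Sema3e* lies on the plus strand at chr5:14025026-14025325, *Unc5a* on the plus strand at chr13:54949161-54949460, *Unc5c* on the plus strand at chr3:141465314-141465613 and *Plxnc1* on the minus strand at chr10:94944796-94945095.
Sema3e: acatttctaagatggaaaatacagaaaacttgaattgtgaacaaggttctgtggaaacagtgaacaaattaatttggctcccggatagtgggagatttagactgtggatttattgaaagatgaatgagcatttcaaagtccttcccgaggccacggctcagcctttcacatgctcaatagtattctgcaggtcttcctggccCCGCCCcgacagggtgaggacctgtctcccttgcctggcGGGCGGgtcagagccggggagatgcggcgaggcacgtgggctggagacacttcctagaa
Unc5a: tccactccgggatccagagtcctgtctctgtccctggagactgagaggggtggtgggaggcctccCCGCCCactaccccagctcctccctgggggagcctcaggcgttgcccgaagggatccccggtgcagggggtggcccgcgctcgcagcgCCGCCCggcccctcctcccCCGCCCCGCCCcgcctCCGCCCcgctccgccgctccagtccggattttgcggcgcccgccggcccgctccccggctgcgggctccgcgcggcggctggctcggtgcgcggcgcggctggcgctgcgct
Unc5c: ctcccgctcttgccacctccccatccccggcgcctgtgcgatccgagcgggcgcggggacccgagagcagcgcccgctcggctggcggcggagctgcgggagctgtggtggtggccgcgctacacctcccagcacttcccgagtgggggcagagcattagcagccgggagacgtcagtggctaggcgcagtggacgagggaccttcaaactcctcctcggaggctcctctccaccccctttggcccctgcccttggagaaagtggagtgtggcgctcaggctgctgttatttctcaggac
Plxnc1: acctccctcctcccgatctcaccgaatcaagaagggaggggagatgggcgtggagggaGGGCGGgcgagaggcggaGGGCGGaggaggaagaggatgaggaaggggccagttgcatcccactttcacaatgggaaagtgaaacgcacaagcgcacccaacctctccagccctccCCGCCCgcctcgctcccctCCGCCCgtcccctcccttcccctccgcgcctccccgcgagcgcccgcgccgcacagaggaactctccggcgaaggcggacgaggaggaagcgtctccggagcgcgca

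*Unc5a*, which fell, and *Plxnc1*, which rose, have GC-rich windows with 37 and 30 CpG, 78.3% and 69% G and C, and 5 and 4 GC boxes. *Unc5c*, which rose, has 24 CpG and no GC box, and *Sema3e*, which fell, has 11 CpG, 50.7% G and C and 2 GC boxes. Over all 76 windows of members the median was 19.5 CpG and 64.3% G and C, against 7 CpG and 52.7% over the 32851 windows of all genes. A GC box was in 71.1% of the members' windows and 35.7% of all windows: 60% of the 25 windows of members that rose, 66.7% of the 6 windows of members that fell and 84.4% of the 32 windows of tested members that were not called. Among the members, CACGTG was in 6.58% of windows (7.15% of all), TGANTCA in 3.95% (7.81% of all), GCGTGGGCG in 2.63% (0.612% of all) and GAGGAAGT in none (3.2% of all), each counted on both strands. These letters are a description of the windows and were not tied to any factor.

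Over the 18 tested semaphorins 44.4% rose and 16.7% fell, against 14.3% and 7.32% of all tested genes. The secreted class 3 semaphorins split, with 4 of 6 tested genes higher and 1 lower. *Sema3e*, the ligand of plexin D1 that acts without a neuropilin, was the class 3 semaphorin with the most counts in WT and fell most of all members. It measured 101, 103 and 103 CPM in WT replicates 1, 2 and 3 and 42.8, 26.1 and 44.5 CPM in *Aff3ir-ORF2-/-* replicates 1, 2 and 3 (log2FC -1.43 ± 0.16, adjusted p = 1.07e-04). All 3 *Aff3ir-ORF2-/-* libraries were far below the WT libraries, and replicate 2 was the lowest. *Sema3a*, the classical repellent that signals through neuropilin 1, went the other way, from 37.6, 36.97 and 42.8 CPM to 66.7, 41.5 and 75.9 CPM (log2FC 0.65 ± 0.19, adjusted p = 0.0164). Its groups overlapped, because *Aff3ir-ORF2-/-* replicate 2 stood just below the highest WT library. The call on *Sema3a* was lost without WT replicate 1 or 2 or *Aff3ir-ORF2-/-* replicate 1 (adjusted p = 0.0603, 0.0607 and 0.0573) and, by fold, without *Aff3ir-ORF2-/-* replicate 3 (log2FC of 0.46), and over all alternatives the adjusted p ran from 1.27e-06 to 0.0607. *Sema3c* measured 49.2, 50.6 and 53.2 CPM in WT and 81.05, 58.4 and 81.1 CPM in *Aff3ir-ORF2-/-* libraries (log2FC 0.53 ± 0.12, adjusted p = 0.00443), a rise of less than 1.5-fold, and it passed that threshold without *Aff3ir-ORF2-/-* replicate 2 (0.67).

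*Sema3b*, which also acts through neuropilins, was low in WT at 2.67, 2.73 and 2.35 CPM and reached 10.5, 11.9 and 8.77 CPM in *Aff3ir-ORF2-/-* MEFs (log2FC 2.01 ± 0.15, adjusted p = 1.57e-05). *Sema3d* measured 2.32, 1.99 and 2.35 CPM in WT and 6.48, 7.19 and 5.07 CPM in *Aff3ir-ORF2-/-* libraries (log2FC 1.49 ± 0.18, adjusted p = 1.52e-04). Both stayed low, with every *Aff3ir-ORF2-/-* library above every WT library. *Sema3f*, the neuropilin 2 ligand, had more counts, at 18.1, 17.6 and 19.3 CPM in WT and 32.8, 34.9 and 37.2 CPM without *Aff3ir-ORF2* (log2FC 0.93 ± 0.07, adjusted p = 1.43e-05), and its 3 libraries in either genotype lay close together. *Sema3b* overlaps *Lsmem2* in the annotation, and the counting is not stated to use strand, so its value may hold reads of that gene. *Sema3g*, with 4 to 6 counts in every library, was too low to test. The class 3 counts together came to 211 to 223 CPM in WT and to 241, 180 and 253 CPM in *Aff3ir-ORF2-/-* replicates 1, 2 and 3, so that replicate 2 was below and the others above the WT libraries.

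Among the membrane-bound semaphorins, 3 of 5 tested class 4 genes were higher, 1 of 4 class 6 genes was higher and 1 lower, and 1 of 2 class 5 genes was lower. *Sema4d*, also known as CD100, a semaphorin of lymphocytes and other immune cells that binds plexin B1 and CD72, showed the greatest change of all members. It measured 1.39, 1.82 and 1.89 CPM in WT and 9.17, 12.5 and 18.1 CPM in *Aff3ir-ORF2-/-* replicates 1, 2 and 3 (log2FC 2.95 ± 0.28, adjusted p = 4.59e-05). The *Aff3ir-ORF2-/-* libraries stood in the same order for *Sema4d* as for the summed macrophage markers, which were 1360, 1880 and 2320 CPM in those libraries, and the part of macrophage RNA in the value was not tested. That order was not particular to *Sema4d*: *Sema3f*, *Sema4c*, *Sema6b*, *Plxnc1*, *Plxnd1* and *Epha4* also stood in it. So did *Efna5* and *Plxna2*, which did not pass the test, and *Plxnb1*, which fell. With 3 libraries few orders are possible, and a shared order is given as a description only. *Sema4d* overlaps the predicted gene *Gm19281*. *Sema4b* measured 18.7, 18.9 and 18.9 CPM and 30.4, 31.1 and 30.8 CPM (log2FC 0.70 ± 0.055, adjusted p = 1.79e-05), and *Sema4f* 2.44, 2.84 and 2.23 CPM and 3.9, 3.7 and 4.14 CPM (log2FC 0.64 ± 0.16, adjusted p = 0.00788). Neither gene's libraries overlapped between genotypes, and the rise of *Sema4f* was under 1.5-fold without WT replicate 3 (log2FC of 0.56). *Sema4c*, at 0.31 (adjusted p = 0.00861), rose by less than 1.5-fold, and *Sema4g* did not pass at 0.41 (adjusted p = 0.0669, 95% interval 0.076 to 0.75), although all 5 tested class 4 genes had higher CPM in every *Aff3ir-ORF2-/-* library than in any WT library.

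*Sema6b*, a transmembrane semaphorin that binds A plexins, was almost at the floor in WT with 7, 10 and 6 counts, against 50, 59 and 60 counts in the libraries without *Aff3ir-ORF2*. In CPM that was 0.406, 0.569 and 0.343 against 2.75, 3.17 and 3.27 (log2FC 2.78 ± 0.25, adjusted p = 3.25e-05). The gene stayed low in both genotypes. *Sema6d*, another ligand of A plexins, fell from 18.96, 17.1 and 17.7 CPM to 10.8, 9.12 and 12.8 CPM (log2FC -0.72 ± 0.12, adjusted p = 9.57e-04). *Sema5a*, which carries thrombospondin repeats, fell from 57.2, 62.3 and 60.6 CPM to 26.4, 41.8 and 22.9 CPM (log2FC -0.98 ± 0.18, adjusted p = 0.00177). *Aff3ir-ORF2-/-* replicate 2 lay nearer to WT than the other *Aff3ir-ORF2-/-* libraries for *Sema5a*, and farther from it for *Sema6d*. *Sema6a* (-0.31, adjusted p = 0.0225) and the GPI-anchored *Sema7a* (-0.49, adjusted p = 6.71e-04) fell by less than 1.5-fold. *Sema5b* and *Sema6c* did not pass, with log2 fold changes of 0.16 (95% interval -0.44 to 0.75) and 0.29 (-0.046 to 0.63), and *Sema4a*, with 3 to 14 counts, was not tested.

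Of 10 tested plexins and neuropilins, 3 were called higher (30%, against 14.3% of all tested genes) and 1 lower (10%, against 7.32%). Another 5 changed by less than 1.5-fold. *Nrp1*, the co-receptor of *Sema3a* and of VEGF, rose from 188, 177 and 194 CPM in WT to 302, 256 and 305 CPM in *Aff3ir-ORF2-/-* MEFs (log2FC 0.63 ± 0.071, adjusted p = 1.19e-04), with no overlap. The fold was under 1.5 without *Aff3ir-ORF2-/-* replicate 1 or without *Aff3ir-ORF2-/-* replicate 3 (log2FC of 0.58 in each). *Nrp2*, the co-receptor of *Sema3f*, changed less, from 207, 213 and 210.3 CPM to 232, 246 and 216 CPM (log2FC 0.14 ± 0.052, adjusted p = 0.0473). *Plxnd1*, the receptor of *Sema3e*, rose while its ligand fell: it measured 26.1, 26.7 and 27.02 CPM in WT and 37.7, 41.9 and 48.2 CPM in *Aff3ir-ORF2-/-* MEFs (log2FC 0.68 ± 0.088, adjusted p = 2.55e-04), and without *Aff3ir-ORF2-/-* replicate 3 its fold was under 1.5 (log2FC of 0.58). *Plxnc1*, the receptor of *Sema7a* and a plexin of myeloid cells among others, rose from 8.76, 6.2 and 7.56 CPM to 20.1, 27.1 and 30.9 CPM (log2FC 1.79 ± 0.18, adjusted p = 5.40e-05). The *Aff3ir-ORF2-/-* libraries of *Plxnc1* were all well above the WT libraries. Their order was that of the summed macrophage markers (1360, 1880 and 2320 CPM), whose part was not tested. The *Aff3ir-ORF2-/-* libraries of *Plxnd1* stood in the same order, as did those of *Plxna2*, which did not pass, and of *Plxnb1*, which fell.

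The plexins with the most counts were *Plxna1* and *Plxnb2*, and both rose by less than 1.5-fold. *Plxna1*, which class 3 semaphorins use with neuropilins, measured 405, 397 and 387 CPM in WT and 505, 459.6 and 518 CPM in *Aff3ir-ORF2-/-* libraries (log2FC 0.32 ± 0.053, adjusted p = 0.00102). *Plxnb2*, a receptor of class 4 semaphorins, measured 364, 379 and 377 CPM and 478, 479.9 and 479 CPM (log2FC 0.36 ± 0.04, adjusted p = 1.02e-04). In each gene the 3 libraries of a genotype were close together and those of *Aff3ir-ORF2-/-* MEFs were higher. *Plxna3* (0.48, adjusted p = 2.51e-04) also rose by less than 1.5-fold, *Plxnb1*, the receptor of *Sema4d*, fell (-0.36, adjusted p = 0.0357) by less than 1.5-fold, and *Plxna2* did not pass (0.028, 95% interval -0.093 to 0.15). *Plxna1* overlaps *Gm40415* and *Plxnb1* overlaps *Gm7628*. *Plxna4*, a receptor of class 6 semaphorins and, with *Nrp1*, of *Sema3a*, was the plexin called lower, from 7.42, 7.17 and 7.96 CPM to 3.62, 5.42 and 4.03 CPM (log2FC -0.78 ± 0.16, adjusted p = 0.0029), with *Aff3ir-ORF2-/-* replicate 2 nearest to WT. *Plxnb3* had 2 to 12 counts and was not tested. The summed level of plexins and neuropilins was 1293 to 1302 CPM in WT and 1613 to 1702 CPM in *Aff3ir-ORF2-/-* libraries, the largest difference of the 6 family sums.

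Of 10 tested Eph receptors 4 rose and 1 fell, or 40% and 10%, against 14.3% and 7.32% of all tested genes. The B receptors *Ephb2* and *Ephb3*, which bind the same B ephrins, moved in opposite directions. *Ephb2* fell from 88.1, 87.6 and 86.8 CPM in WT to 44.3, 60.9 and 38.96 CPM in *Aff3ir-ORF2-/-* replicates 1, 2 and 3 (log2FC -0.86 ± 0.13, adjusted p = 6.98e-04), while *Ephb3* rose from 16.99, 15.6 and 16.6 CPM to 27.1, 38.1 and 22.7 CPM (log2FC 0.84 ± 0.17, adjusted p = 0.00283). Replicate 2 was the highest of the *Aff3ir-ORF2-/-* libraries for both genes, which placed it nearest to WT for *Ephb2* and farthest from WT for *Ephb3*. *Ephb4*, the partner of *Efnb2* at the border of arteries and veins, did not pass: it measured 63.4, 63.7 and 59.8 CPM and 58.1, 60.2 and 58.3 CPM, and the 95% interval of its log2 fold change was -0.17 to 0.012. *Ephb6*, which lacks kinase activity, did not pass either (-0.11, 95% interval -0.59 to 0.37).

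*Epha4*, the receptor with the broadest choice of ephrins, rose from 14.2, 14.7 and 16.3 CPM to 23.1, 23.8 and 28.6 CPM (log2FC 0.74 ± 0.098, adjusted p = 2.81e-04). *Epha7* rose from 6.79, 6.94 and 6.58 CPM to 10.7, 10.5 and 10.95 CPM (log2FC 0.66 ± 0.09, adjusted p = 3.16e-04), and *Epha1*, mainly known from epithelia, rose from 4.7, 3.3 and 4.87 CPM to 9.94, 7.84 and 9.59 CPM (log2FC 1.09 ± 0.17, adjusted p = 6.24e-04). For none of these receptors did the libraries of the genotypes overlap. *Epha1* shares part of its locus with *Zyx*, so its count is uncertain where reads were not assigned by strand. *Epha2*, the Eph receptor with the most counts in WT, stood at 105, 104 and 105 CPM in WT and 103, 58.4 and 109.6 CPM in *Aff3ir-ORF2-/-* MEFs and did not pass (-0.21, 95% interval -0.59 to 0.16). *Aff3ir-ORF2-/-* replicates 1 and 3 were close to the WT libraries, so the groups overlapped, and replicate 2 was far below them. *Epha3* fell by less than 1.5-fold (-0.47, adjusted p = 0.0291), and *Epha5*, with 7 to 14 counts, did not pass (-0.22, 95% interval -1.01 to 0.57). *Epha6*, *Epha8*, *Epha10* and *Ephb1* had 0 to 4 counts per library and were not tested.

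Of 8 tested ephrins 2 were called higher and none lower, both of them A ephrins, a share of 25% against 21.6% of all tested genes. *Efna1*, a ligand induced by inflammatory cytokines in endothelium and a partner of *Epha2*, had 23, 10 and 21 counts in WT, against 64, 73 and 56 counts in *Aff3ir-ORF2-/-* libraries. In CPM it rose from 1.33, 0.569 and 1.2 to 3.51, 3.92 and 3.05 (log2FC 1.75 ± 0.27, adjusted p = 7.01e-04). *Efna4* rose from 4.64, 3.3 and 3.38 CPM to 6.7, 6.87 and 6.7 CPM (log2FC 0.84 ± 0.15, adjusted p = 0.00157). These A ephrins were low in WT and apart between genotypes. *Efna3* did not pass, with log2FC 0.81 (adjusted p = 0.0568, 95% interval 0.18 to 1.44), nor did *Efna2* (-0.57, adjusted p = 0.071) or *Efna5*, the A ephrin with the most counts, which measured 27.7, 29.8 and 30.6 CPM in WT and 27.8, 29.8 and 32.4 CPM in *Aff3ir-ORF2-/-* MEFs (0.032, 95% interval -0.11 to 0.17).

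The membrane-spanning B ephrins with many counts fell by less than 1.5-fold. *Efnb2* measured 129, 125 and 135 CPM in WT and 100.04, 90.2 and 95.5 CPM in *Aff3ir-ORF2-/-* libraries (log2FC -0.44 ± 0.052, adjusted p = 1.40e-04). *Efnb1*, whose loss causes defects of skull and face, measured 32.5, 33.3 and 32.5 CPM and 26.03, 24.8 and 23.2 CPM (log2FC -0.41 ± 0.062, adjusted p = 5.67e-04). For both, all 3 *Aff3ir-ORF2-/-* libraries were below all WT libraries. *Efnb3*, with 9 to 19 counts, did not pass (0.19, 95% interval -0.51 to 0.89). Summed over the 3 B ephrins the level was 159 to 168 CPM in WT and 116 to 127 CPM in *Aff3ir-ORF2-/-* MEFs, and over the 5 A ephrins it was 37.3 to 39.5 and 41.2 to 45.9 CPM.

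Among the 4 tested Slits and Robos, *Robo2* was the gene called, again 25%. It measured 2.78, 2.84 and 2.29 CPM in WT and 7.8, 13.7 and 9.7 CPM in *Aff3ir-ORF2-/-* replicates 1, 2 and 3 (log2FC 1.98 ± 0.23, adjusted p = 1.22e-04). *Robo1*, with many more counts, went from 37.1, 36.1 and 38.9 CPM to 22.1, 29.9 and 27.7 CPM (log2FC -0.49 ± 0.10, adjusted p = 0.00328). The groups of both receptors were apart, in opposite directions, and the fall of *Robo1* was under 1.5-fold except without *Aff3ir-ORF2-/-* replicate 2 (log2FC of -0.59). Their ligand *Slit2* rose by less than 1.5-fold, from 243, 248 and 244 CPM in WT to 338, 371 and 343 CPM in *Aff3ir-ORF2-/-* MEFs (log2FC 0.52 ± 0.048, adjusted p = 3.79e-05). *Slit3*, the Slit known for its expression in mesenchyme and diaphragm, did not pass, at 362, 365 and 349.7 CPM in WT and 264, 383 and 215 CPM in *Aff3ir-ORF2-/-* MEFs (-0.32, adjusted p = 0.137, 95% interval -0.65 to 0.013). *Aff3ir-ORF2-/-* replicates 1 and 3 were below WT and replicate 2 above it, so the groups overlapped. Without *Aff3ir-ORF2-/-* replicate 2, *Slit3* was called lower (log2FC of -0.59, adjusted p = 1.59e-05), and over all alternatives the adjusted p ran from 1.59e-05 to 0.339. *Slit1*, *Robo3* and *Robo4*, with at most 10 counts in any library, were not tested.

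Over the 8 tested netrins and netrin receptors 25% rose and 25% fell, against 14.3% and 7.32% of all tested genes. The netrin receptors of the Unc5 family, which mediate repulsion and also act as dependence receptors, changed in both directions, 2 of 4 higher and 1 lower. *Unc5c* rose from 8.7, 8.99 and 9.39 CPM in WT to 24.3, 20.7 and 33.5 CPM in *Aff3ir-ORF2-/-* libraries (log2FC 1.53 ± 0.17, adjusted p = 1.03e-04), and *Unc5a* fell from 3.13, 3.98 and 3.32 CPM to 1.59, 1.72 and 1.25 CPM (log2FC -1.19 ± 0.20, adjusted p = 9.36e-04). The genotypes were apart for both. *Unc5a* overlaps *Hk3*, a hexokinase of myeloid cells, so part of its count is uncertain. *Unc5b*, the family member with the most counts and the Unc5 receptor of vessels, fell by less than 1.5-fold, from 272, 269 and 276 CPM to 219, 162 and 227 CPM (log2FC -0.43 ± 0.11, adjusted p = 0.00952), and *Aff3ir-ORF2-/-* replicate 2 was the lowest library. *Unc5d* had 5, 12 and 12 counts in WT, against 24, 22 and 17 in *Aff3ir-ORF2-/-* libraries (log2FC 1.03 ± 0.35, adjusted p = 0.0315). This call rests on few counts: the adjusted p was 0.0872 in DESeq2 and 0.101, 0.0512, 0.0511 and 0.085 without WT replicates 1, 2 and 3 and *Aff3ir-ORF2-/-* replicate 1, in a range over all alternatives of 0.0278 to 0.101.

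*Ntn1*, the founding netrin, fell from 29.8, 26.6 and 25.4 CPM in WT to 14.4, 18.8 and 17.5 CPM in *Aff3ir-ORF2-/-* MEFs (log2FC -0.69 ± 0.11, adjusted p = 6.18e-04), with every *Aff3ir-ORF2-/-* library below every WT library. *Ntn4*, a netrin of basement membranes, fell by less than 1.5-fold (-0.36, adjusted p = 0.0186). *Neo1*, neogenin, the Dcc relative with the most counts here, stood at 172, 171 and 176 CPM and 174, 169.8 and 187 CPM and did not pass, with a 95% interval of -0.06 to 0.13 for its log2 fold change. *Ntn3*, which overlaps *Tbc1d24*, did not pass either (0.29, 95% interval -0.11 to 0.69). *Dcc*, the receptor for attraction to netrin in axons, had 2 to 9 counts, and *Ntn5*, which overlaps *Sec1*, at most 1 count, so neither was tested. The sum over netrins and their receptors was 508 to 520.1 CPM in WT and 459, 394 and 493 CPM in *Aff3ir-ORF2-/-* replicates 1, 2 and 3.

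Ratios between members of one family differed between the genotypes, also where both members rose (*Nrp1* and *Nrp2*) or where one did not pass the test (*Slit3*). The ratios were chosen after the values of single genes had been seen and are given without a test. In each, the gene with the higher log2FC was placed over the other, so a higher ratio in *Aff3ir-ORF2-/-* MEFs was built in. The ratio of *Sema3a* to *Sema3e* counts was 0.374, 0.359 and 0.417 in WT against 1.56, 1.59 and 1.71 in *Aff3ir-ORF2-/-* replicates 1, 2 and 3. Replicate 2 was lower than the other *Aff3ir-ORF2-/-* libraries for both genes, and its ratio lay between theirs. The ratio of *Ephb3* to *Ephb2* was likewise tight, at 0.193, 0.179 and 0.191 in WT against 0.612, 0.626 and 0.583 in *Aff3ir-ORF2-/-* MEFs. *Robo2* stood at 0.0751, 0.0787 and 0.0589 of *Robo1* in WT and at 0.352, 0.457 and 0.35 in *Aff3ir-ORF2-/-* libraries. *Robo2* therefore stayed the lesser Robo in counts in all 6 libraries. *Unc5c* over *Unc5b* went from 0.032, 0.0335 and 0.034 to 0.111, 0.128 and 0.147, and *Sema3c* over *Sema3e* from 0.49, 0.491 and 0.519 to 1.9, 2.24 and 1.82. *Nrp1* over *Nrp2* changed from 0.912, 0.831 and 0.922 to 1.3, 1.04 and 1.41, and *Slit2* over *Slit3* from 0.672, 0.68 and 0.699 to 1.28, 0.97 and 1.59. In none of the 7 ratios did the genotypes overlap, which the choice of pairs favoured.

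**Figure D3:**
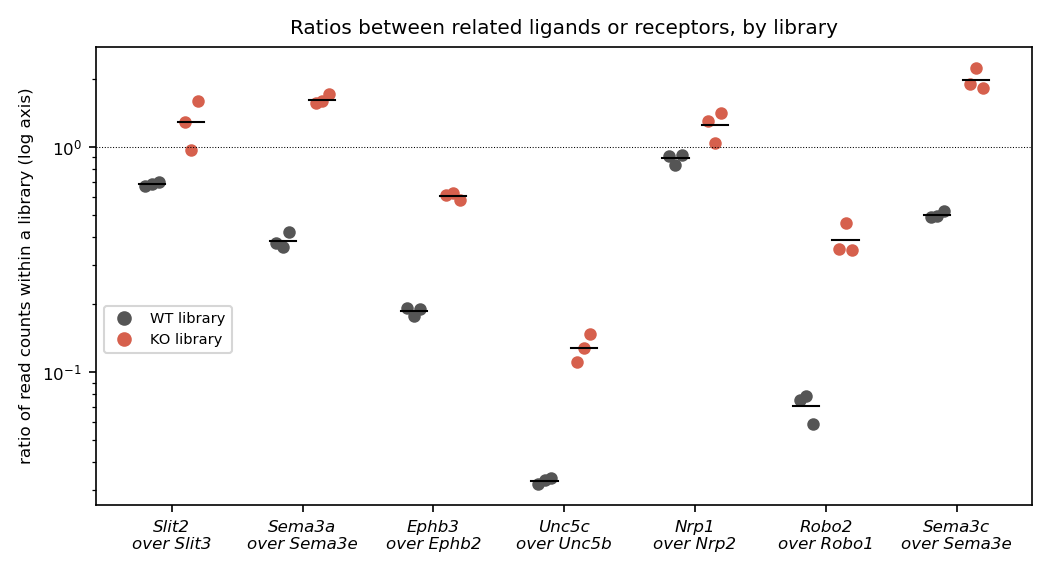
Ratio of the counts of 7 pairs of members (y axis, log scale) in each WT and *Aff3ir-ORF2-/-* library, 1 point per library with the mean of each genotype as a bar. The gene with the higher log2 fold change was placed on top. In every pair the 3 *Aff3ir-ORF2-/-* points lie above the 3 WT points, by 1.41-fold (*Nrp1* over *Nrp2*) to 5.45-fold (*Robo2* over *Robo1*) between means.

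Levels of different genes were compared per transcript length, as TPM (counts per kilobase of the longest transcript, scaled to a fixed sum). In WT MEFs the member with the highest level per length was *Slit3* at 207 TPM ± 4.29 (SD, n = 3), followed by *Plxnb2* at 173 ± 4.42 and *Nrp1* at 154 ± 7.21. Then came *Unc5b*, *Plxna1*, *Nrp2*, *Efnb2*, *Epha2*, *Slit2* and *Neo1*, from 139.7 down to 70.5 TPM; *Efnb2* and *Epha2*, at 81.4 and 80.6 TPM, did not differ beyond their spread. The same 10 members were the 10 highest in *Aff3ir-ORF2-/-* MEFs, where *Nrp1* came first at 240.2 ± 18.8 TPM, *Plxnb2* second at 224.5 ± 4.34 and *Slit3* next at 168 ± 53.5. Between *Nrp1* and *Plxnb2* in *Aff3ir-ORF2-/-* MEFs the difference was within the spread. With the median transcript length of each gene in place of the longest, 9 of the 10 stayed in the WT list and *Plxna1* came first, so the order depends on the transcript chosen. The members called higher with the greatest folds were low in level: *Sema4d*, *Sema6b*, *Sema3b* and *Robo2* were each under 3 TPM in WT.

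**Figure D4:**
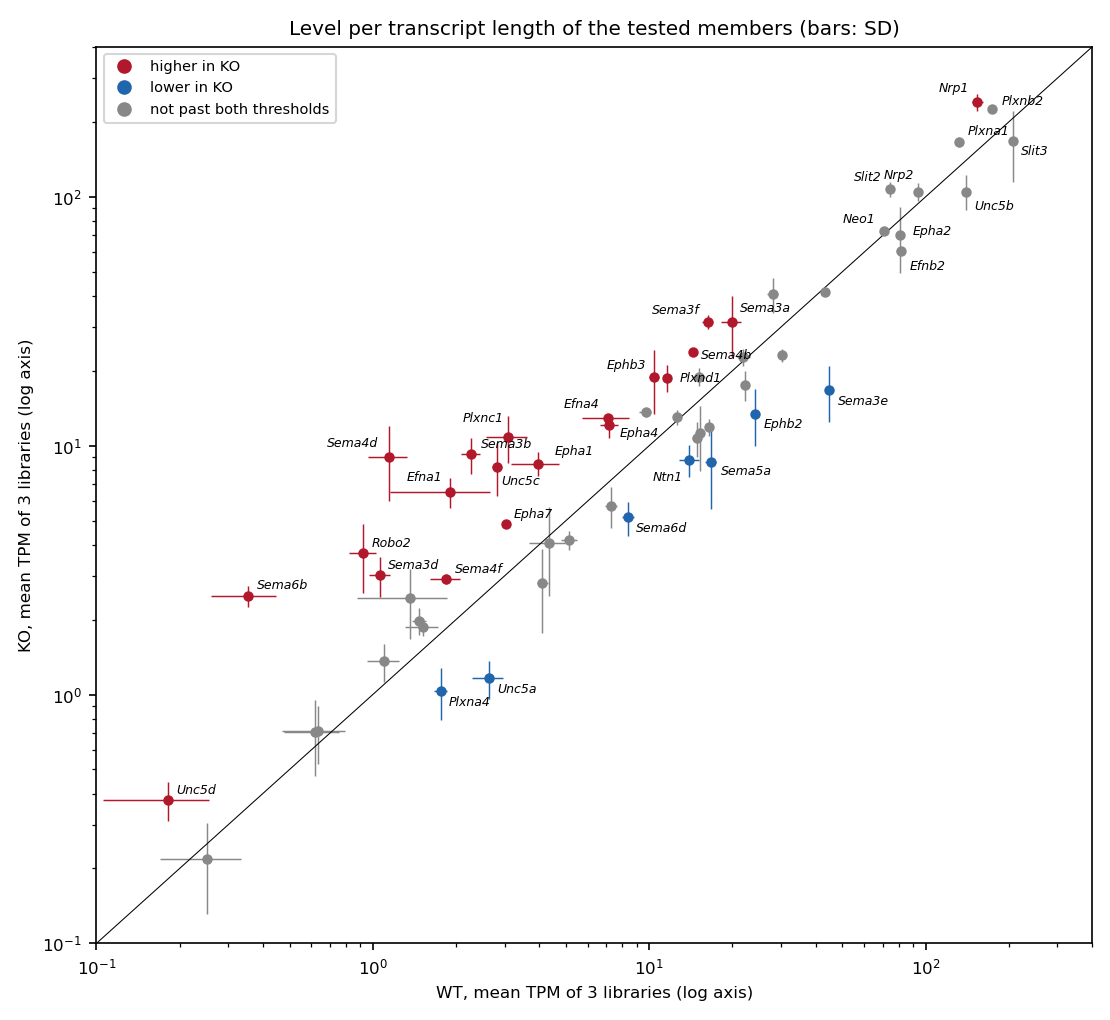
Mean level per transcript length (TPM, log axes) of the tested members in WT (x axis) and *Aff3ir-ORF2-/-* MEFs (y axis), bars showing the SD of 3 libraries and the diagonal equal levels; red marks members called higher and blue members called lower. Members above 50 TPM lie near the diagonal, and the red points farthest from it are low in WT.

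*Aff3ir-ORF2-/-* replicate 2 stood apart from replicates 1 and 3 for many members, about as often as for all tested genes. Of the 3 *Aff3ir-ORF2-/-* libraries it was the farthest from the others in 29 of the 58 tested members (50%), against 47.5% of all tested genes. By family the share ran from 33.3% of semaphorins and 37.5% of netrin genes to 9 of 10 Eph receptors. The median coefficient of variation of the members was 5% between WT libraries and 15.1% between *Aff3ir-ORF2-/-* libraries, against 4.39% and 7.69% over all tested genes. Without *Aff3ir-ORF2-/-* replicate 2, 21 members were higher and 11 lower, and the 4 members added to those that fell were *Efna2* (log2FC of -0.90), *Epha3* (-0.72), *Robo1* (-0.59) and *Slit3* (-0.59). *Sema3c* (0.67) was added to those that rose, and no call among the 27 was lost. *Epha2* then had a log2FC of 0.016 in place of -0.21, *Sema5a* -1.29 in place of -0.98 and *Ephb2* -1.08 in place of -0.86. The fall of *Sema3e* was smaller without that library (-1.23 in place of -1.43).

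**Figure D5:**
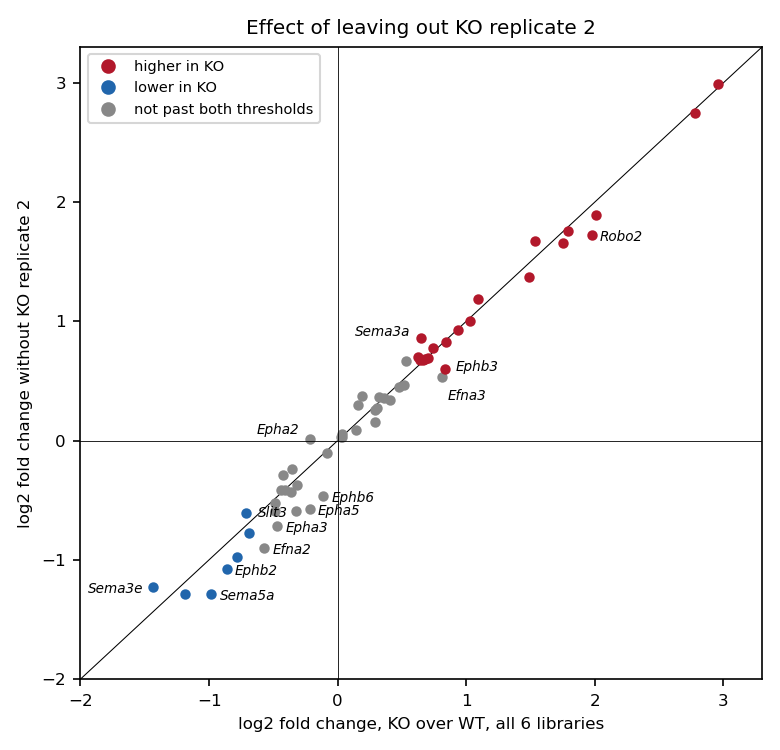
Log2 fold change of each tested member with all 6 libraries (x axis) and without *Aff3ir-ORF2-/-* replicate 2 (y axis), coloured by the call with all libraries; names mark members that moved by 0.2 or more. Most points lie near the diagonal. Of the named members *Epha2*, which moves to about 0, *Sema3a* and *Sema3e* lie above it. *Epha5*, *Ephb6*, *Efna2*, *Sema5a*, *Efna3*, *Slit3*, *Robo2*, *Epha3*, *Ephb3* and *Ephb2* fall below it.

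The genes that act with guidance receptors were counted from 4 hand-written lists, whose members partly overlap. The share called in either direction was 15.6% of semaphorin partners, 17.9% of Eph partners, 26.1% of Slit-Robo partners and 34.6% of netrin partners, against 21.6% of all tested genes. Of 32 tested partners of semaphorin signalling, 4 rose and 1 fell. *Cd72*, the immune receptor of *Sema4d*, rose from 0.696, 0.626 and 0.801 CPM to 2.91, 4.78 and 3.05 CPM (log2FC 2.33 ± 0.28, adjusted p = 1.64e-04), and *Rnd1*, a GTPase that binds plexins, from 15.3, 14.6 and 14.4 CPM to 32.8, 23.7 and 39.9 CPM (log2FC 1.12 ± 0.17, adjusted p = 5.28e-04). *Fes* (1.06), a kinase downstream of plexin A1, and *Rhod* (0.64) rose too. *Met*, the hepatocyte growth factor receptor that associates with B plexins, fell (log2FC -0.89 ± 0.10, adjusted p = 1.21e-04). The list member with the most counts, *Itgb1*, showed log2FC 0.33 (adjusted p = 7.79e-04).

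Of 28 tested partners of Eph signalling, the adaptor *Nck1* rose (0.60, adjusted p = 1.57e-04) and 4 fell: *Ngef* (-1.94), the exchange factor ephexin, *Grip1* (-1.35), *Chn2* (-1.12) and *Abl2* (-0.84), a kinase that acts on actin. *Ngef* measured 4.47, 3.87 and 5.04 CPM in WT and 1.04, 0.698 and 1.74 CPM in *Aff3ir-ORF2-/-* libraries (adjusted p = 4.54e-04). *Rock2* had the most counts of this list, with log2FC 0.18 (adjusted p = 0.0801).

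Of 23 tested Slit-Robo partners 2 rose and 4 fell. Dystroglycan, encoded by *Dag1*, which binds Slits in basement membranes, rose from 226, 223 and 224 CPM to 376, 383 and 356 CPM (log2FC 0.73 ± 0.043, adjusted p = 4.32e-06), and *Nell2*, a *Robo3* ligand, was the other that rose (0.84). *Evl* (-0.83), an actin regulator of the Ena/VASP family, *Gpc1* (-0.68), a heparan sulfate proteoglycan that binds Slit, *Flrt3* (-0.67) and *Abl2* fell, while *Cap1*, which had the most counts, stood at 0.16 (adjusted p = 0.0428). Of 26 tested netrin partners 4 rose and 5 fell. *Dapk1*, the death-associated kinase that binds Unc5 receptors, rose from 6.67, 8.36 and 6.81 CPM to 22.8, 27.8 and 27.9 CPM (log2FC 1.85 ± 0.12, adjusted p = 5.92e-06). The integrin chain *Itga3* (1.13), the laminin receptor *Bcam* (1.15) and *Nck1* rose as well. *Dock1*, the exchange factor for Rac, fell from 229, 235 and 246 CPM to 121, 121 and 116 CPM (log2FC -0.99 ± 0.044, adjusted p = 1.85e-06), and *Adgrl3* (-1.18), *Itga6* (-0.75), *Flrt3* and *Itgb4* (-0.82) fell. *Maged1* had the most counts of the netrin list, at 0.26 (adjusted p = 0.00491). The median log2 fold changes of the 4 lists, in the order given, were -0.055, -0.099, -0.041 and -0.11, beside 0.29 over the ligands and receptors themselves.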

How the data were processed

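RNA from 3 WT and 3 *Aff3ir-ORF2-/-* MEF cultures was sequenced on DNBSEQ; the labels name Trizol for its extraction and the study's methods a kit, the MagicPure Total RNA Kit. The authors filtered reads with SOAPnuke and deposited estimated counts per gene, not normalized; the aligner, counting tool, annotation and use of strand are not given in the sources used here. The submitters' processing notes name build mm8. The deposited estimated counts were rounded to whole numbers. Genes kept by filterByExpr (minimum count 10, minimum total 15), 13075 of 17092, were fitted in edgeR 4.0.16 with TMM scaling and tested by quasi-likelihood without covariates, with Benjamini-Hochberg adjustment over all of them (R 4.3.3, limma 3.58.1, DESeq2 1.42.0; figures in matplotlib 3.10.9). A call needed an adjusted p under 0.05 and 1.5-fold. Standard errors are the log2 fold change over the square root of F, and 95% intervals use a normal quantile. The test has few degrees of freedom, so these intervals are narrower than it implies. They are also not adjusted for the number of genes, so an interval that leaves out 0 is not a call. On simulated counts with 3-fold changes, 200 of 200 changed genes were recovered and 4 others called, of 13068 tested. The simulation changed only genes with many counts and gave both genotypes the same spread. It therefore does not cover low counts, changes near 1.5-fold or the wider spread of the *Aff3ir-ORF2-/-* libraries. TPM was computed from GENCODE transcript lengths, which 16558 genes had. Floors of 3 counts cover counting error only.

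Members, gene lists and tests were chosen with earlier results of these data known. Genes named with values in every library are, per family, members past both thresholds (up to 8 per direction by adjusted p), the 2 with the most counts and binding partners among the members, and per partner list up to 4 per direction by adjusted p and the 1 with the most counts. Alternatives were other scalings, filters, tests and fold thresholds, a replicate block, and leaving out each library.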

Additional observations from a re-analysis of the deposited data

How the results depend on the processing

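Of the 27 called members, 22 kept their call in every one of the 14 alternative fits with the 1.5-fold rule that tested them, and the exceptions were *Nrp1*, *Plxnd1*, *Sema3a*, *Sema4f* and *Unc5d*. The signs of 50 of the 58 tested members held throughout, and the 8 that changed did not pass the test: leaving out 1 library at a time gave log2 fold changes of -0.028 to 0.078 for *Efna5* (also -0.0079), -0.12 to 0.38 for *Efnb3*, -0.38 to 0.016 for *Epha2*, -0.57 to 0.014 for *Epha5*, -0.46 to 0.043 for *Ephb6* (also 0.022), -0.011 to 0.058 for *Neo1*, -0.031 to 0.072 for *Plxna2* and -0.089 to 0.38 for *Sema5b*. The cause was not tested. In the counts that follow, partner genes are 141 genes of the 4 partner lists and of the related families described below, without the members. With the main settings 121 of them were tested, and 19 were called higher and 15 lower. Leaving out 1 library at a time gave 18 to 21 members higher and 7 to 11 lower, 16 to 23 partner genes higher and 12 to 14 lower, 7 to 9 semaphorins higher and 3 lower, 1 to 3 plexins and neuropilins higher and 1 lower, 4 Eph receptors higher and 1 to 2 lower, 2 to 3 ephrins higher and 0 to 1 lower, 1 Slit or Robo higher and 0 to 2 lower, and 1 to 2 netrin genes higher and 2 lower. A 2-fold threshold left 10 members higher and 2 lower, with 4 and 1 semaphorins, 1 and 0 plexins and neuropilins, 1 and 0 Eph receptors, 1 ephrin higher, 1 netrin gene lower and 6 partner genes lower. edgeR's glmTreat against 1.5-fold gave 10 members higher and 2 lower, with 5 and 1 semaphorins, 1 and 0 plexins and neuropilins, 1 and 0 Eph receptors, 1 ephrin higher, 1 netrin gene in each direction, and 10 and 8 partner genes. With an adjusted p under 0.05 alone, 27 members were higher and 16 lower, with 5 semaphorins, 2 Eph receptors, 2 ephrins and 4 netrin genes lower, 7 and 2 plexins and neuropilins, 2 and 1 Slits and Robos, and 35 and 37 partner genes. Netrin genes called higher fell to 1 with at least 10 counts in every library and in DESeq2. The replicate block gave 20 members higher and 7 lower, and changed no call among members. Deviations from the genotype mean had correlations of 0.0696, 0.0387 and 0.00694 between same-numbered libraries. Without different-numbered libraries beside them, these values cannot decide whether same-numbered cultures were handled together. Low counts limit *Unc5d*, *Efna3*, *Efnb3*, *Epha5* and *Sema5b*, and 12 members could not be tested.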

Other observations

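Of 21 tested genes in related guidance families outside the ligand and receptor families above, 9 (42.9%) were called higher and 3 (14.3%) lower in *Aff3ir-ORF2-/-* MEFs, against 14.3% called higher and 7.32% called lower of all tested genes, and the list was written by hand with earlier results of these data known. The neuronal adhesion genes *Slitrk5* and *Slitrk6* were low in WT, at 1.74, 1.02 and 1.6 and 0.986, 1.31 and 1.66 CPM, and reached 11.1, 11.2 and 14.1 and 7.3, 7.67 and 8.94 CPM in *Aff3ir-ORF2-/-* replicates 1, 2 and 3 (log2 fold changes of 3.06 and 2.59, adjusted p = 5.62e-06 and 1.26e-05). *Nrcam*, an adhesion molecule of the L1 family that forms complexes with semaphorin receptors, rose from 3.6, 4.15 and 4.06 CPM to 18.01, 12.8 and 18.9 CPM (log2FC 2.07 ± 0.17, adjusted p = 1.96e-05). *Lingo1*, a partner of the Nogo receptor, and the adhesion gene *Alcam* rose with log2 fold changes of 1.46 and 0.71 (adjusted p = 3.78e-04 and 3.75e-05). The Nogo receptor relative *Rtn4rl1* fell from 3.94, 3.24 and 4.64 CPM to 1.15, 1.45 and 1.42 CPM (log2FC -1.55 ± 0.21, adjusted p = 2.81e-04), and the netrin-G1 ligand *Lrrc4c* fell as well (log2FC -1.04 ± 0.19, adjusted p = 0.00146). *Rtn4*, the Nogo gene itself and the one with the most counts, stood at a log2 fold change of -0.14 (adjusted p = 0.109). Without *Aff3ir-ORF2-/-* replicate 2 the list gave 7 higher and 2 lower. In the same libraries 5 of 6 tested neuronal markers fell, with sums of 71.7 to 78.1 CPM in WT and 33.4 to 42.1 CPM in *Aff3ir-ORF2-/-* libraries. Of 6 tested neural crest and glial markers 4 rose, with sums of 9.80 to 10.4 CPM in WT and 12.7 to 24.8 CPM in *Aff3ir-ORF2-/-* libraries. All 16 tested macrophage markers rose too. The part of any of these cell types in the values of this list was not tested.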
